A study of Arabidopsis thaliana with 24 samples.

Results

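Transcript levels in untreated card1-1 seedlings were compared with those of WT by RNA sequencing of whole Arabidopsis thaliana seedlings. The comparison used the 4 card1-1 and 4 WT libraries of the DMSO mock treatment, 8 of the 24 libraries of the series, chosen by their labels. WT here is a Col-0 line that expresses aequorin, a photoprotein that reports calcium, and card1-1 is a mutant in that same background, so both groups carry the reporter. All seedlings were stratified for 2 days and grown for 7 days in liquid half-strength MS medium with 0.25% sucrose, under 16 h light and 8 h dark at 22 °C and 50 µE, and received DMSO for 10 min. The labels describe neither the card1-1 lesion nor how the mutant was made or backcrossed. Whether the replicates were separate cultures is not stated, and the p-values therefore rest on a spread between libraries that may be technical.

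CARD1, also known as HPCA1, is a leucine-rich repeat receptor kinase of the plasma membrane that acts in the perception of quinones and of hydrogen peroxide, and calcium entry is an early step of that signalling. Quinones are electrophiles, and plants respond to electrophiles by raising glutathione S-transferases, which join glutathione to the compound, UDP-glycosyltransferases, which join a sugar, and oxidoreductases that reduce it. The comparison asks whether transcripts differ in the mutant before any quinone is added.

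Gene counts ran from 3058233 to 6845450 per WT library and from 2640441 to 4918390 per card1-1 library. None of 6 library measures passed an exact two-sided permutation test between the groups, which can reach no p below 0.0286 here, and the smallest p, for the total gene count, was 0.229 (0.743 after adjustment over the 6). Alignments counted as not unique made up 24.7% ± 3.99 (SD, n = 4) in WT and 25.1% ± 6.16 in card1-1. Replicate 1 of card1-1 stood apart from the other 7 libraries. Of 14584 genes with a mean above 5 CPM (normalised read counts per 1e6), 200 were over 2-fold above all 7 others in that library and 242 over 2-fold below, against 0 to 11 above and 5 to 26 below in any other. EXT3, an extensin of the cell wall, held 39080 CPM there and 9334 to 14900 in the others, CWLP, a proline-rich cell wall protein gene, 26290 against 7389 to 10300, and PSBY, a photosystem II protein gene, 9960 against 3155 to 4680. The main results are therefore given with and without that library. Whole seedlings were measured, so fewer cells of a type and less RNA per cell cannot be told apart. Of the markers of green shoots, 8 of 21 tested photosynthesis genes were above WT and 13 below (median log2 difference -0.02), which turned to 14 above and 7 below without card1-1 replicate 1 (median 0.03), and none of 13 seed storage genes passed the filter on low counts, with at most 2 counts in any library.

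**Figure D1:**
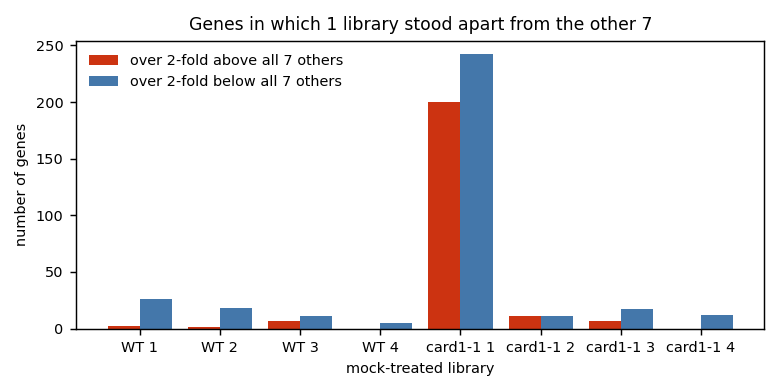
Number of genes, of 14584 with a mean above 5 CPM, that lay over 2-fold above (red) or below (blue) all 7 other mock libraries, for each library. Replicate 1 of card1-1 held 200 and 242 such genes, and no other library held more than 11 and 26.

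No gene passed the test. Of 16547 genes tested with edgeR's quasi-likelihood test, 0 had an adjusted p below 0.05 (0% called) and the smallest adjusted p was 0.0959. At an unadjusted p below 0.05 there were 553 genes higher in card1-1 (3.34% of those tested) and 460 lower (2.78%). The estimates exceeded 2-fold in 155 genes upward and 115 downward, with a median standard error (SE) of 0.25 on the log2 scale and a biological coefficient of variation of 24.3%. Without card1-1 replicate 1 the count was again 0 of 16686, with 442 genes higher (2.65%) and 471 lower (2.82%) at an unadjusted p below 0.05. On the same 8 libraries DESeq2 called 14 genes, 5 higher and 9 lower, while limma voom called 0 (1122 genes at an unadjusted p below 0.05).

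CARD1 itself (AT5G49760, chromosome 5 from 20216332 to 20221382, plus strand, 19 exons, TAIR10.1) was lower in card1-1 without passing the test. It held 78.4, 71.3, 65.8 and 74.3 CPM in WT replicates 1 to 4 and 49.1, 61.1, 50.4 and 58.8 CPM in card1-1. Every card1-1 library lay below every WT library. The log2 difference was -0.40 (SE 0.15, unadjusted p = 0.0183, edgeR adjusted p = 0.788) and -0.35 without card1-1 replicate 1. A transcript that is still present at this level does not check the genotype label, since a lesion in the coding sequence need not alter it. The other tested members of the CARD1 receptor kinase clade were not called either: AT1G79620 differed by -0.91, AT5G49770 by -0.40, AT1G06840 by 0.22 and AT5G01950 by 0.01 on the log2 scale.

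The 5 genes with the smallest p among those lower in card1-1 were SQE6, UGT73B4, AT5G19370, APR2 and STY2. The groups did not overlap in any of them, which adds no support, since they were ranked by p on these same libraries. Of all genes tested, 1.7% were lower with no overlap. SQE6 (AT5G24160), a squalene monooxygenase of the family that makes sterol and triterpene precursors, held 15.3, 12.8, 20.2 and 21.4 CPM in WT and 2.58, 1.46, 6.45 and 3.36 CPM in card1-1. Every card1-1 library lay below every WT library. Its log2 difference was -2.37 (SE 0.37, edgeR adjusted p = 0.0959) and -2.26 without replicate 1 (adjusted p = 0.0628). It did not pass the test, although 7 of 21 alternative fits called it, over which the adjusted p ranged from 9.32e-06 to 0.867. SQE6 belongs to a tandem family of similar genes, so reads could be split between copies.

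UGT73B4 (AT2G15490), a glycosyltransferase that acts on xenobiotics and phenolics, held 6.09, 10.99, 23.7 and 13.7 CPM in WT and 2.35, 2.33, 3.03 and 3.36 CPM in card1-1. The card1-1 libraries lay close together and below a WT group that itself spread widely. The log2 difference was -2.31 (SE 0.41, adjusted p = 0.23), and UGT73B4 and its neighbour UGT73B5 are similar enough that their counts are uncertain. APR2 (AT1G62180), an adenosine phosphosulfate reductase of sulfate assimilation, the pathway that supplies cysteine for glutathione, held 200.6, 168.1, 293.7 and 141.7 CPM in WT and 76.8, 115.8, 98.2 and 96.0 CPM in card1-1. Its log2 difference was -1.06 (SE 0.21, adjusted p = 0.377). AT5G19370, a rhodanese-like domain protein, differed by -0.97 (SE 0.19), and STY2 of the STYLISH family of transcription regulators by -1.69 (SE 0.36), with adjusted p of 0.377 and 0.441.

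The 5 with the smallest p among those higher were ATPMEPCRB, AT2G29510, AT1G70990, the plastid gene ATCG00380 and CYC3B. ATPMEPCRB (AT4G02330), a pectin methylesterase of the cell wall, held 17.5, 11.5, 13.0 and 17.55 CPM in WT and 77.5, 32.0, 29.2 and 31.9 CPM in card1-1. Replicate 1 was far above the other card1-1 libraries, which still lay above all of WT. The log2 difference was 1.55 (SE 0.31, adjusted p = 0.441) and 1.07 without that library. AT1G70990, a proline-rich protein gene, gave 1.63 with all libraries and 1.11 without replicate 1, AT2G29510 gave 0.94 and 0.77, and CYC3B, a mitotic cyclin, gave 1.81 and 1.52. ATCG00380 gave 1.08 and 1.15.

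**Figure D2:**
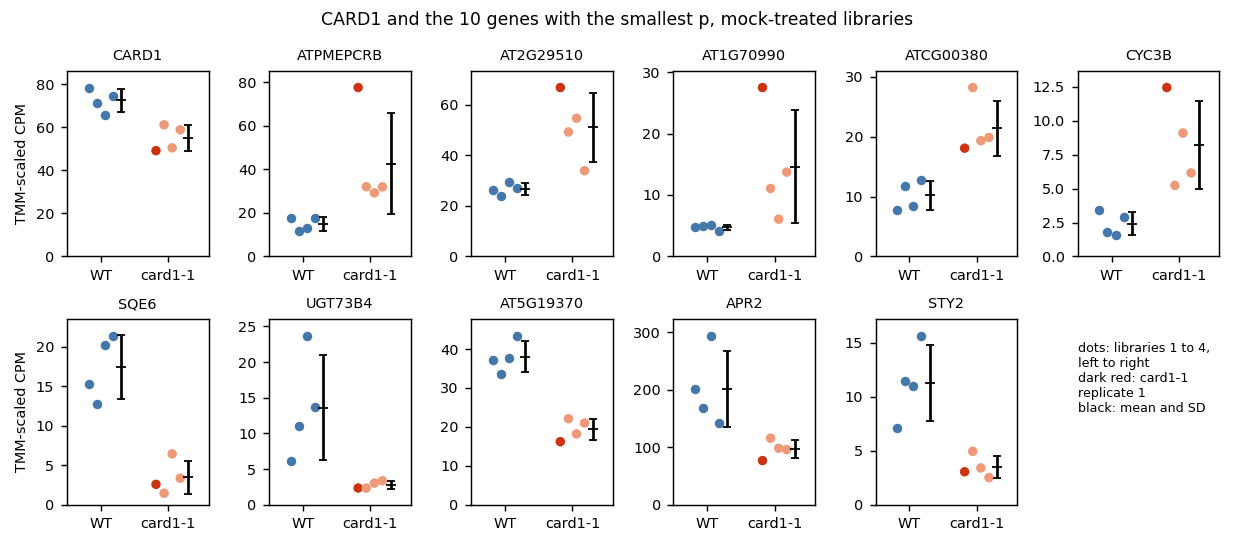
Normalised read count (TMM-scaled CPM) of CARD1 and of the 5 higher and 5 lower genes with the smallest p, for each mock library of WT (blue) and card1-1 (red; replicate 1 dark), with the mean and SD of each group in black. The groups do not overlap in any of the 11 genes, but all except CARD1 were picked by their p on these libraries. Of all genes tested, 1.83% were higher and 1.7% lower with no overlap. ATPMEPCRB reaches 77.5 CPM in card1-1 replicate 1 alone.

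The gene list for quinone and electrophile detoxification lay lower in card1-1. Of its 25 genes 19 were tested, and the estimate was below 0 in 19 of 19, against 47.9% of all genes tested. The list was chosen with earlier results of these data known, so its counts, here and below, are not an independent test. The median log2 difference was -0.57, against 0.02 for all genes. No member was called. At an unadjusted p below 0.05, 7 of 19 were lower and 0 higher, against 2.78% and 3.34% of all genes, and 4 were lower without card1-1 replicate 1. In 3 the libraries did not overlap (1.7% of all genes tested were lower and 1.83% higher with no overlap). Without card1-1 replicate 1 the estimate was again below 0 in 19 of these 19, with a median of -0.54. The count depends on WT replicate 3, in which 14 of the 19 members had their highest level: without that library 15 of 19 were below 0 and the median was -0.42. Members that share a high library in this way are not independent observations. Over the list, the summed level was 588.5, 651.7, 1259 and 785.2 CPM in WT replicates 1 to 4 and 454.7, 493.4, 650.5 and 464.1 CPM in card1-1, where replicate 3 overlapped the WT range.

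Among the glutathione S-transferases, GSTU24 held 5.36, 4.1, 20.2 and 9.57 CPM in WT and 0.705, 2.33, 3.41 and 1.12 CPM in card1-1, without overlap (log2 difference -2.45, SE 0.58, adjusted p = 0.724). GSTU19 held 201.1, 237.6, 345.1 and 219.5 CPM in WT and 155.0, 189.7, 169.8 and 161.8 CPM in card1-1, also without overlap (-0.57, SE 0.17, adjusted p = 0.773). GSTF6 and GSTF7, which are near-identical neighbours and uncertain for that reason, differed by -0.72 and -0.80. GSTU1 (-1.08), GSTU25 (-0.84), GSTU8 (-0.44) and GSTF8 (-0.25) overlapped between the groups. Among the glycosyltransferases, UGT73B5 differed by -0.55 (SE 0.21) and UGT73B3 by -0.33 (SE 0.36), beside UGT73B4 above.

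Among the reductases and oxygenases, OPR1, an oxophytodienoate reductase family member, held 47.0, 43.0, 275.3 and 133.4 CPM in WT and 30.1, 20.7, 81.9 and 19.0 CPM in card1-1. CYP81D11, a cytochrome P450 that electrophiles induce, held 5.11, 8.53, 91.1 and 32.9 CPM in WT and 1.64, 0.582, 28.1 and 2.80 CPM in card1-1. In both genes replicate 3 was the highest library of its genotype, and the ranges overlapped. The log2 differences were -1.75 (SE 0.80) for OPR1 and -2.20 (SE 1.37) for CYP81D11. OPR2 differed by -1.12, the transporter DTX1 by -0.48, the quinone reductase FQR1 by -0.25, CYP81D8 by -0.27, the alternative oxidase AOX1A by -0.17 and AT3G27890 by 0.00.

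**Figure D3:**
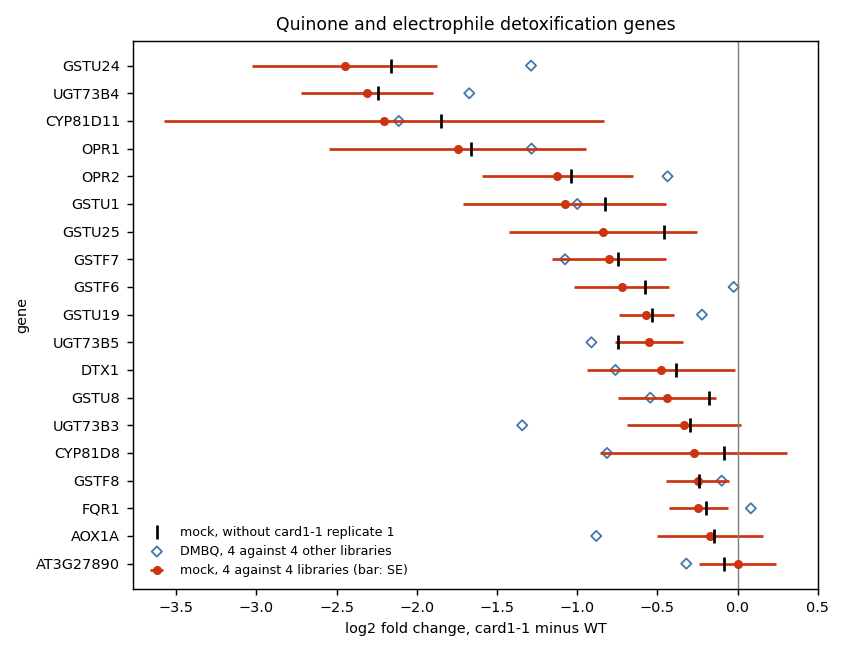
Log2 fold change of card1-1 minus WT for the 19 tested detoxification genes, with mock treatment (red, bar 1 SE), mock treatment without card1-1 replicate 1 (black mark) and in the separate DMBQ-treated libraries (blue diamond). All 19 mock estimates lie at or below 0, from -2.45 for GSTU24 to 0.00 for AT3G27890, and 17 of the 18 DMBQ estimates are negative.

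The card1-1 and WT libraries treated with 5 µM DMBQ (2,6-dimethoxy-1,4-benzoquinone) for 10 min share no library with the mock comparison. They differed between genotypes: alignments not unique made up 48.3% to 66.5% in card1-1 and 29.7% to 41.8% in WT. At equal depth, 17994 to 18643 genes were detected in card1-1 and 19300 to 19884 in WT. The part of these gaps in the comparisons with DMBQ was not tested. In these libraries, 17 of 18 tested detoxification members were lower in card1-1 (median -0.85), against 7584 of 15570 genes in all (median 0.01). Of the 18, 0 were called, and the comparison called 93 genes in all (0.597% of 15570, with 0.295% higher and 0.302% lower). At so low a share, 0 of 18 says little about the members. UGT73B4 differed by -1.67 (SE 0.50, adjusted p = 0.141), UGT73B5 by -0.91 (SE 0.24, adjusted p = 0.0896), OPR1 by -1.29 (SE 0.38) and CYP81D11 by -2.11 (SE 0.62). SQE6 differed by -2.29 (SE 0.70, adjusted p = 0.156) and APR2 by -0.67 (SE 0.19, adjusted p = 0.111). In card1-2 without DMBQ, which is compared with the same WT libraries, the median of the list was -0.26, with UGT73B4 at -1.12, OPR1 at -1.46, CYP81D11 at -2.04 and GSTU19 at 0.02. Between card1-1 and card1-2 without DMBQ the list median was -0.38 and no member was called.

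The 250 bases before the annotated start of these genes were searched for TGACG, the core of the element bound by TGA factors of the bZIP family, on both strands (RefSeq, TAIR10.1). It was found in 9 of 19 tested members (47.4%) and in 19.0% of 16454 upstream windows of all tested nuclear genes with an annotation. Among windows with a match, those of UGT73B4, GSTU24 and GSTF8 overlap another annotated gene. So do the windows of OPR2, CYP81D8 and AT3G27890, which hold no match. A match overlapped TTGAC, the core of the WRKY binding element, in UGT73B3. The windows below, read 5′ to 3′ toward the gene, were picked after the values were seen as ones that hold no other annotated gene: GSTU19, which has no match, UGT73B5 with 1, GSTU1 with 2 and CYP81D11 with 1. Capitals mark TGACG, or CGTCA where it lies on the opposite strand.
GSTU19 (chr1:29488008-29488257, minus strand): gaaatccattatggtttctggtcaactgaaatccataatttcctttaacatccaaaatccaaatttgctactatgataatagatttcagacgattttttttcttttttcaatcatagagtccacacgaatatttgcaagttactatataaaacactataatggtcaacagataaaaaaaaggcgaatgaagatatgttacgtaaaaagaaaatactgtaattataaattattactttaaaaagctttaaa
UGT73B5 (chr2:6758180-6758429, plus strand): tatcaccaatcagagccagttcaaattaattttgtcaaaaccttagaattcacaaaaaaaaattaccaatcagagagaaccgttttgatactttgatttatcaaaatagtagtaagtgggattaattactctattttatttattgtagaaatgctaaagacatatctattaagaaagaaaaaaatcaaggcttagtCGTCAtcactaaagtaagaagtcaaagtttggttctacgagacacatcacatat
GSTU1 (chr2:12632539-12632788, minus strand): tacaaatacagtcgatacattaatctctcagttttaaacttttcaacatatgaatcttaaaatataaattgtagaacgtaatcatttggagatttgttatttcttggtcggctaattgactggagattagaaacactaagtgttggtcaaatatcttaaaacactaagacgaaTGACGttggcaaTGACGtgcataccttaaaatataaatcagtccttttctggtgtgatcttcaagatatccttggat
CYP81D11 (chr3:10790554-10790803, minus strand): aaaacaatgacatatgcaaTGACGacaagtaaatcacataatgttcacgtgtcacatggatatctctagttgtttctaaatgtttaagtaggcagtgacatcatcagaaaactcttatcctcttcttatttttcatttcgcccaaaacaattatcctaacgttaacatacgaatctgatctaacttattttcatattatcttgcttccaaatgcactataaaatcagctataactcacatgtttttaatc
A match is a description of the letters in the window and not a binding site.

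Of the plastid-encoded genes, the estimate was above 0 in 67 of 74 tested (of 133 counted) and the median log2 difference was 0.59, against 52.1% and 0.02 for all genes tested. No member was called. At an unadjusted p below 0.05, 15 were higher and 0 lower, against 3.34% and 2.78% of all genes. Without card1-1 replicate 1, 73 of 74 were above 0 and the median was 0.76, and without card1-1 replicate 2 the median was 0.36. The median log2 level relative to the WT mean was -0.17, 1.11, 0.92 and 0.12 in card1-1 replicates 1 to 4. In WT it ran from -0.60 to 0.37, and members that move together by library are not independent observations. In card1-2 without DMBQ, compared with the same WT libraries, the list median was 0.745, and card1-1 minus card1-2 gave -0.148. ATCG00380 held 7.79, 11.8, 8.37 and 12.8 CPM in WT and 18.1, 28.2, 19.3 and 19.9 CPM in card1-1, without overlap. Plastid genes took 0.323% to 0.560% of the gene counts in WT and 0.405% to 1.16% in card1-1, so that 2 card1-1 libraries lay within the WT range and 2 above it. The shares not unique in those 2 were 25.5% and 32.3%, against 17.3% and 25.0% in the other 2, and their part in the result was not tested. Of the 74, 70 were also tested with DMBQ. There, 13 were higher and called, against 0.295% of all genes tested with DMBQ. Of the 13, 4 (ATCG00380, ATCG00510, ATCG00540 and ATCG00630) were also higher at an unadjusted p below 0.05 without DMBQ. With DMBQ the shares not unique ran from 48.3% to 66.5% in card1-1 and from 29.7% to 41.8% in WT.

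Estimates were above 0 in 6 of 6 tested stress zinc finger factors, in 11 of 14 WRKY factors, in 6 of 9 calcium and touch genes and in 9 of 14 genes of pattern-triggered immunity, against 52.1% of all genes tested. These lists, too, were chosen with earlier results of these data known. No member was called. The medians were 0.57 for the zinc finger factors, 0.32 for WRKY factors, 0.52 for calcium and touch and 0.27 for pattern-triggered immunity. Over all alternatives the zinc finger median ran from 0.36 to 0.63. The others were less stable. With the genes filtered anew, the WRKY median was 0.05 without card1-1 replicate 1, and that of calcium and touch 0.30. The median of pattern-triggered immunity was 0.14 without card1-1 replicate 1 and 0.09 without card1-1 replicate 3. On the genes tested with all libraries, the medians without card1-1 replicate 1 were 0.16 for WRKY factors (13 of 14 above 0), 0.35 for calcium and touch and 0.21 for pattern-triggered immunity. With no filter on low counts the median of pattern-triggered immunity was -0.06, and that of calcium and touch was 0.00. SZF1, a tandem zinc finger protein gene, held 71.1, 37.4, 55.9 and 72.4 CPM in WT and 125.7, 74.2, 171.0 and 105.8 CPM in card1-1, and the groups did not overlap (log2 difference 1.01, SE 0.25). SOBIR1, a co-receptor kinase of immune receptors, held 32.6, 34.0, 37.8 and 51.7 CPM in WT and 98.2, 61.7, 72.0 and 52.1 CPM in card1-1 (0.87, SE 0.21). WRKY22 differed by 0.65 (SE 0.16), the kinase CPK28 by 0.75 (SE 0.20) and the syntaxin SYP121 by 0.63 (SE 0.17), each without overlap. Of all genes tested, 1.83% were higher with no overlap. With DMBQ the medians of these lists were negative: -0.53 for the zinc finger factors, -0.28 for WRKY factors, -0.48 for calcium and touch and -0.71 for pattern-triggered immunity. The DMBQ libraries differed between genotypes in the share not unique and in genes detected, as given above. The difference between the genotype effects with and without DMBQ was tested as an interaction in a fit of the 16 libraries. Of the 63 named genes, 3 passed. On the log2 scale it was -2.61 for SOBIR1 (edgeR adjusted p = 1.07e-05) and -1.41 for WRKY22 (adjusted p = 0.0206). CYP707A3, an abscisic acid hydroxylase, gave -2.63 (adjusted p = 0.0127).

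The medians of several other lists moved when single libraries were left out. Heat shock genes were above 0 in 13 of 16 with all libraries (median 0.39) and in 4 of 16 without card1-1 replicate 1 (-0.10). Root hair markers had a median of 0.60 with that library and 0.12 without: LRX1, a leucine-rich repeat extensin of root hairs, held 324.6 CPM in replicate 1 and 54.6 to 86.7 in the other card1-1 libraries, against 55.9 to 65.6 in WT. Low oxygen genes were below 0 in 11 of 13 (median -0.40). They were below 0 in 9 of 13 both without card1-1 replicate 1 (median -0.18) and without WT replicate 3 (-0.14), the highest library for this list. Sugar starvation genes were above 0 in 6 of 6 (median 0.32), with no member called and none at an unadjusted p below 0.05. They were above 0 in 5 of 6 without card1-1 replicate 3 (median 0.09) and without WT replicate 2 (0.14). With DMBQ 6 of 6 were above 0 (0.65). The 20 tested clock genes had a median of 0.09 (0.07 without card1-1 replicate 1), and 3 had libraries without overlap. Of all genes tested, 1.83% were higher and 1.7% lower with no overlap. The 3 were CCA1 at 0.60 (SE 0.18) and PRR9 at 0.73 (SE 0.23), both active in the morning, and GRP7, a clock-regulated RNA-binding protein gene, at -0.34 (SE 0.15). APX1, the cytosolic ascorbate peroxidase, held 211.8, 226.1, 249.8 and 180.6 CPM in WT and 109.9, 144.3, 158.8 and 175.8 CPM in card1-1, without overlap (-0.56, SE 0.17, adjusted p = 0.773). Medians were -0.03 for cell cycle, -0.01 for iron homeostasis and 0.02 for nitrate genes, and -0.04 for jasmonate genes, the last turning to 0.11 without card1-1 replicate 1.

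The remaining lists held no called member either. Their median log2 differences were 0.20 for salicylic acid and EDS1 genes, 0.14 for glucosinolate genes, 0.14 for phosphate starvation, 0.12 for reactive oxygen enzymes, 0.10 for auxin, 0.09 for ERF and CBF/DREB factors, 0.09 for inner root markers and 0.04 for abscisic acid, cold and dehydration genes. They were -0.04 for flavonoid, -0.10 for glyoxylate cycle and -0.13 for phenylpropanoid genes. The 6 tested mitochondrial genome genes had a median of 0.05, and 0.24 without card1-1 replicate 1. Without that library the sign of the median turned for salicylic acid and EDS1 genes (-0.04), reactive oxygen enzymes (-0.04), inner root markers (-0.07), abscisic acid, cold and dehydration genes (-0.01) and flavonoid genes (0.02). It was 0.04 for glucosinolate genes, 0.13 for phosphate starvation, 0.04 for auxin, 0.13 for ERF and CBF/DREB factors, -0.07 for the glyoxylate cycle and -0.15 for phenylpropanoid genes. Single members of these and the photosynthesis and jasmonate lists had libraries without overlap, as did 1.83% of all genes upward and 1.7% downward. Beside APX1, lower in card1-1 were RBCS2B, a small subunit of Rubisco, at -0.76 (SE 0.22) and the phosphate transporter PHT1;1 at -0.96 (SE 0.29). Higher were the phosphate transporter PHT1;4 at 0.63 (SE 0.39), CYP707A3 at 1.32 (SE 0.33) and the lipoxygenase LOX3 at 0.59 (SE 0.36). Another lipoxygenase of the jasmonate list, LOX2, went the other way at -0.94 (SE 0.44), with overlap between the groups. RBCS2B held 633.6, 514.3, 341.0 and 349.1 CPM in WT and 196.1, 331.4, 323.0 and 235.1 CPM in card1-1, and it has near-identical copies, so its count is uncertain.

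**Figure D4:**
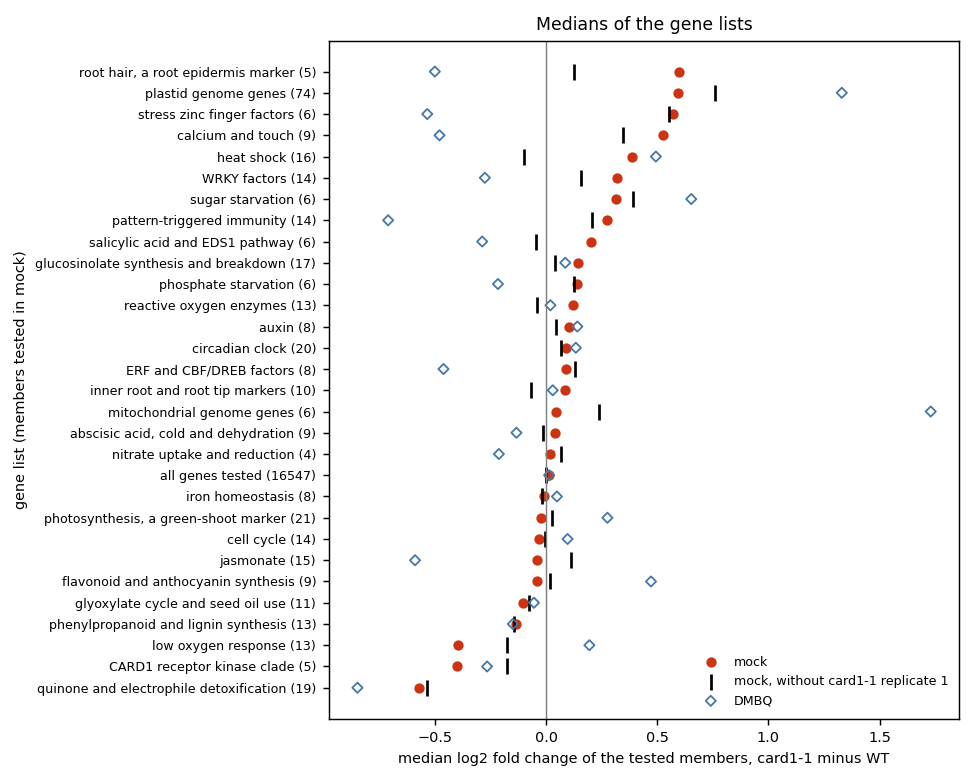
Median log2 fold change of the tested members of each gene list, card1-1 minus WT, with mock treatment (red), mock without card1-1 replicate 1 (black mark) and DMBQ (blue diamond); the number tested stands in brackets. Detoxification is the lowest mock median at -0.57, and heat shock moves from 0.39 to -0.10 without replicate 1.

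**Figure D5:**
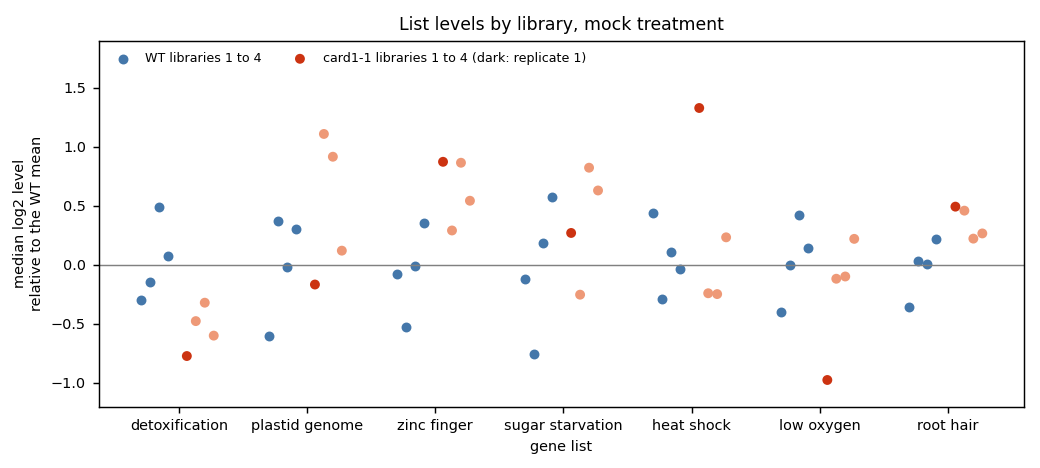
Median log2 level of 7 gene lists in each mock library relative to the WT mean, for WT (blue) and card1-1 (red; replicate 1 dark), replicates 1 to 4 from left to right. The detoxification level of the 4 card1-1 libraries runs from -0.77 to -0.32 and of the 4 WT libraries from -0.30 to 0.49, while heat shock reaches 1.33 in card1-1 replicate 1 alone.

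The direction of the differences was compared with that in the DMBQ-treated libraries. Those libraries differed between genotypes in the share not unique, and its part in the comparison was not tested. Of 15401 genes tested in both treatments, 48.5% had the same sign, and of 968 genes with an unadjusted p below 0.05 without DMBQ, 50.8% did. Of those 968, 8 were also called with DMBQ in the same direction, which is 0.826% of the 968 and 8.60% of the 93. Among all 15401 genes, 37 were called with DMBQ in the same direction. Others of the 968 were called in the opposite direction: SOBIR1 (0.87 without and -1.74 with DMBQ), CAMBP25 (0.62 and -0.93), AT1G29470 (0.35 and -0.59) and AT2G27710 (-0.35 and 0.48). Apart from the 4 plastid genes, the 8 with the same direction were GRP3S, GRP-3, GLP9 and AT4G33120. GRP3S (AT2G05380), a glycine-rich protein gene, held 314.6, 370.9, 1092 and 593.2 CPM in WT and 160.9, 96.9, 346.1 and 108.3 CPM in card1-1, where replicate 3 overlapped the WT range. Its log2 difference was -1.74 without DMBQ (adjusted p = 0.788) and -2.01 with DMBQ (adjusted p = 0.00271). GLP9, a germin-like protein gene, differed by -1.65 and -2.23, GRP-3, another glycine-rich protein gene, by -0.45 and -1.05, and AT4G33120 by 0.67 and 0.92.

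Between the mutants without DMBQ, 4 of 16118 genes were called (0.0248%). ICL, the isocitrate lyase of the glyoxylate cycle, was lower in card1-1 at 6.12 ± 3.12 CPM (SD, n = 4) than in card1-2 at 47.2 ± 13.6 CPM (log2 difference -2.96, edgeR adjusted p = 0.000538). ICL held 3.90, 3.28, 0.433 and 4.15 CPM in WT and 5.64, 10.2, 6.44 and 2.52 CPM in card1-1, so the groups overlapped. BGLU21, a beta-glucosidase gene (1.15), LUL4, a RING protein gene (1.81), and ATCG00330 (2.03) were higher in card1-1 than in card1-2. From WT, card1-1 differed by 0.17 (SE 0.20) in BGLU21, 0.09 (SE 0.20) in LUL4 and 0.81 (SE 0.61) in ATCG00330, and none was called. SQE6 differed between the mutants by -2.10 and from WT by -0.27 in card1-2, whereas CARD1 differed by 0.03 and -0.44.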

How the data were processed

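RNA sequencing libraries of whole seedlings were used, 8 in the main comparison and 16 more in side comparisons. Per the submitters' processing notes, which give no roles, the tools were HTSeq 0.6.1, TopHat2 2.1.1, TopHat, bcl2fastq 2.17 and CASAVA, and the genome build was TAIR10. The table the authors deposited gives a raw count per gene and library. A summary line with fractions puts its columns in the class of estimated counts, but each gene value deposited is a whole count, used unrounded. The 9 lines of tallies and labels, which name no gene, entered neither library sizes nor tests. In the 8 libraries, records that were not unique made up 17.3% to 32.3%, those without a feature 1.92% to 2.49% and ambiguous ones 0.289% to 0.360%. The strand setting is not given in the sources used here, so reads of overlapping and antisense genes cannot be told apart.

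Genes were filtered with filterByExpr (minimum count 10, minimum total 15), scaled by TMM and tested, on the mock libraries alone, with edgeR 4.0.16's robust quasi-likelihood test in R 4.3.3, two-sided, with Benjamini-Hochberg adjustment and a threshold of 0.05. The side comparisons were fitted in the same way. The script was tested on simulated data. CPM values are TMM-scaled. Replicate pairs of a group differed beyond counting noise (chi-square over degrees of freedom 5.45 to 27.3), so none was merged as a repeat run of another. The check cannot tell whether they came from separate cultures. Names came from RefSeq (TAIR10.1), which matched 32835 of 33602 genes. Plastid codes are given as in the table. The named genes were CARD1, the 5 genes with the smallest p in each direction, since none was called, and from each of 28 lists the 2 with the smallest p; others were added to describe lists or were chosen after their values were seen. The members and lists were chosen with earlier results of these data known. Alternatives were other scalings, no filter, DESeq2 1.42.0, limma 3.58.1, wider fits, covariates, the replicate number as a block and leaving out each library. Library weights, GC and length offsets and the block without card1-1 replicate 1 were chosen after seeing the data.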

Additional observations from a re-analysis of the deposited data

Results flagged for a closer look

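Of 138 sets of 4 values checked for 1 library far from the others (the named genes and the library measures, in each group), 7 had one; chance alone gives one in about 1 in 20 sets. In 6 of the 7 the library was card1-1 replicate 1, and its part in these results was measured only by leaving it out. ATPMEPCRB held 77.5 CPM there against 29.2 to 32.0 in the other card1-1 libraries. LRX1 held 324.6 CPM against 54.6 to 86.7, and SCR, a root endodermis regulator, 243.8 CPM against 76.1 to 87.6. The auxin genes ARF19 and IAA2 held 101.5 CPM against 28.0 to 39.8 and 537.5 CPM against 189.1 to 200.9. FER1, a ferritin gene, held 242.2 CPM against 150.5 to 161.2. AT1G79620, a receptor kinase of the CARD1 clade, held 7.71 CPM in WT replicate 2 against 3.17 to 3.32 in the other WT libraries.

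The genotype effect differed between treatments for 3 of the 63 named genes, by the interaction term in an edgeR fit of the 16 libraries. The share of all genes that passed this term is not given here. The effect with DMBQ minus that without was -2.61 for SOBIR1 (adjusted p = 1.07e-05), -2.63 for CYP707A3 (adjusted p = 0.0127) and -1.41 for WRKY22 (adjusted p = 0.0206), on the log2 scale. None of the 3 was called without DMBQ. In the same fit the plastid gene ATCG00150, not among the named genes, gave 2.52 (edgeR adjusted p = 0.0127). The DMBQ libraries differed between genotypes in the share not unique, and its part was not tested.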

How the results depend on the processing

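The count of 0 called genes in card1-1 against WT held in 13 of 21 alternatives. It became 2 with no filter on low counts, 14 with DESeq2, 1 in the fit of all 12 mock libraries, 3 with the not-unique share as covariate and 0 to 1 when each library was left out in turn (1 without WT replicate 4, AT2G25510, and 1 without card1-1 replicate 3, SQE6). With the replicate number as a block it became 16, among them CYP81D11 and UGT73B4 of the detoxification list, and 44 with the block and card1-1 replicate 1 left out; the cause of these moves was not tested. The replicate numbers share no stated culture or day, and deviations of same-numbered libraries correlated by 0.04, 0.26, 0.10 and -0.03. The numbers were therefore not taken as pairs. Replicates 1 and 2 of card1-1 correlated best with their own number (0.26 was the highest value of all), and replicates 3 and 4 with other numbers. The 93 genes called with DMBQ became 195 with no filter, 333 with DESeq2, 270 with the replicate block and 31 to 149 when a library was left out. The 4 genes between card1-1 and card1-2 became 15, 31, 52 and 1 to 15. Of 1318 values for 63 named genes, 1284 kept direction and side of the threshold, 31 (12 genes) passed it and 3 changed sign: FER1 to -0.0139 without card1-1 replicate 1, NIA1 to -0.0107 without card1-1 replicate 2 and NIA2 to -0.0572 without card1-1 replicate 3. Their highest values with a library left out were 0.247, 0.212 and 0.187. With a library left out, the difference in the share not unique ranged from -2.07 to 2.95 percentage points, that in the ambiguous share from -0.01015 to 0.0133 and that in genes detected at equal depth from -158.6 to 126.4. List medians moved in 24 of 607 values. With 4 libraries a group the median SE was 0.25 on the log2 scale, and an estimate of -2.37 (SQE6) did not pass.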
